A study of Homo sapiens with 12 samples.

Results

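Transcripts of 9 genes that code for surface antigens and coreceptors of B cells were measured in 2 diffuse large B-cell lymphoma (DLBCL) cell lines before and after each had acquired resistance to venetoclax, an inhibitor of the anti-apoptotic protein BCL2. The genes were MS4A1, CD37 and CD24 (lineage and membrane antigens), CR2 and CD81 (a complement receptor and a tetraspanin), CD22 and CD72 (inhibitory coreceptors), CD40 (a costimulatory receptor) and FCER2 (the low-affinity IgE receptor). They were chosen by name as a biological group, with earlier results of these data known. They were found in the count files by the Ensembl identifier that carries each symbol in GENCODE 44, and they are 9 of the 60675 identifiers in each file. All 9 are annotated as protein-coding.

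SUDHL6 and SUDHL16 are human DLBCL cell lines. The SUDHL6-parental and SUDHL16-parental cells came from ATCC and carried no acquired resistance. The SUDHL6-resistant and SUDHL16-resistant cells were derived from them under chronic exposure to rising doses of venetoclax (ABT-199), grew at 10 times the original IC50 and were kept in the drug. For experiments the paper moved parental and resistant cells to fresh media, and it does not say whether venetoclax was present when RNA was taken. Acquired resistance and long or continued exposure therefore cannot be told apart. A single resistant line per parental line was described, and each of the 4 groups had 3 RNA-seq libraries, 12 in total. The libraries are named here by their labels: CE-7, CE-8 and CE-9 (SUDHL6-parental), CE-10, CE-11 and CE-12 (SUDHL6-resistant), CE-25, CE-26 and CE-27 (SUDHL16-parental), and CE-28, CE-29 and CE-30 (SUDHL16-resistant). No source says that the 3 libraries of a group came from separate cultures, so p-values measure the spread between these libraries, which may be technical.

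A B cell reads antigen through the B-cell receptor, whose signal is set by proteins that sit beside it in the membrane. CR2 (CD21, the receptor for complement C3d) and the tetraspanin CD81 act there to lower the threshold for activation, while CD22, which binds sialic acid, and CD72, which binds semaphorin CD100, carry inhibitory motifs that recruit the phosphatase SHP-1. CD40, a member of the TNF receptor family, receives the signal of T-cell CD40 ligand and passes it through TRAF adaptors to NF-kappaB, and several of these proteins, MS4A1 (CD20) first among them, are targets of therapeutic antibodies in lymphoma.

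Libraries of SUDHL6 had total counts of 33992784 to 40885665, and those of SUDHL16 of 4131927 to 22068221. The lowest total was that of CE-26, a SUDHL16-parental library that stood apart, with 55.4% of its counts on protein-coding genes (84.3% to 90.2% in the other SUDHL16 libraries) and 31.9% on identifiers outside GENCODE 44. The tests of the 9 genes and the counts of called list genes in SUDHL16 are therefore also given without it. Library kit and instrument differed between the lines and cannot be told apart from them, so levels in SUDHL6 and SUDHL16 are set side by side with no test. Libraries of a group varied more in SUDHL16, with a biological coefficient of variation of 0.468 in edgeR, than in SUDHL6, with 0.0516, so that a given change is easier to detect in SUDHL6. The 6 B-lineage markers CD79A, CD79B, PAX5, EBF1, BLK and BLNK were all detected in each group, with summed levels of 1540.3 to 1775 CPM in SUDHL6 and 1249 to 2724 CPM in SUDHL16, where CPM is a count relative to the TMM-adjusted size of its library. The 8 T-cell markers summed to at most 0.385 CPM in SUDHL6. In SUDHL16 they summed to 1.60 to 18.9 CPM in parental and 11.7 to 14.02 CPM in resistant libraries, with CD3E at 1.16 to 4.48 CPM and 10.8 to 13.4 CPM. The 7 epithelial and stromal markers summed to at most 2.46 CPM in SUDHL6, and in SUDHL16 to 19.7 to 52.7 CPM in parental and at most 0.871 CPM in resistant libraries, with DCN at 19.7 to 25.5 CPM in the parental and at most 0.425 CPM in the resistant libraries. The 8 myeloid markers summed to at most 0.743 CPM in SUDHL6, to 0.386 to 18.9 CPM in SUDHL16-parental and to 0.612 to 2.34 CPM in SUDHL16-resistant libraries. The upper ends of the T-cell, stromal and myeloid sums in SUDHL16-parental libraries were those of CE-26, where 3 counts are 1.03 CPM. CD3E was at 4.48 CPM in CE-26 and at 1.16 and 1.30 CPM in CE-25 and CE-27. DCN was at 25.5 CPM in CE-26 and at 19.7 CPM in each of the others. Markers of B-cell stages included called genes. The 6 germinal centre markers summed to 406 to 420.2 CPM in SUDHL6-parental and 563 to 574 CPM in SUDHL6-resistant libraries, where 4 of 6 were called (2 higher and 2 lower), and to 886 to 1233 CPM and 908 to 1034 CPM in SUDHL16. There edgeR's quasi-likelihood test, its exact test, DESeq2 and limma voom each called 0 of 5, and 0 had an unadjusted p under 0.05. The 6 plasma cell markers summed to 535 to 536 CPM in SUDHL6-parental and 335 to 339 CPM in SUDHL6-resistant libraries, with 2 of 5 called as lower, and to 271 to 293 CPM and 255 to 309 CPM in SUDHL16, with 2 of 4 called as higher (4 of 5 without CE-26). In SUDHL16 XBP1 was at 8.13 to 24.2 CPM in parental and 76.7 to 104.6 CPM in resistant libraries, and PRDM1 at 0 to 0.689 CPM and 9.38 to 12.7 CPM. MZB1, the most abundant of the list there, went the other way, at 248 to 271 CPM and 131 to 205 CPM. SDC1 was at 0 to 2.41 CPM and 0 CPM, IRF4 at 0 to 3.10 CPM and 2.68 to 9.51 CPM, and TNFRSF17 at 0 CPM and 0.603 to 1.02 CPM. The part of all these transcripts in the results below was not tested.

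RefSeq promoter windows (GRCh38.p14) were matched by symbol for 5 of the 9 genes, CR2, CD24, CD72, FCER2 and CD22, with 8 windows among them. The window upstream of one start site is shown for CR2, CD24, CD72 and FCER2, because these are the genes with a window whose change passed the limits in at least one comparison with all libraries or without CE-26. Each runs 5′ to 3′ over the 250 bases before the start site, and capitals mark exact matches to 11 short motifs.
CR2 (chr1:207454078-207454327, plus strand): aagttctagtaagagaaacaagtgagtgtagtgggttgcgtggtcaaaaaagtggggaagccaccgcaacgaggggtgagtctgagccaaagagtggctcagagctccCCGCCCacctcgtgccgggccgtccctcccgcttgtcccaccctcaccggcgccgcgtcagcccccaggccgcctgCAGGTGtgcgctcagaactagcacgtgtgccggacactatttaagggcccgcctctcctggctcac
CD24 (chr6:106975628-106975877, minus strand): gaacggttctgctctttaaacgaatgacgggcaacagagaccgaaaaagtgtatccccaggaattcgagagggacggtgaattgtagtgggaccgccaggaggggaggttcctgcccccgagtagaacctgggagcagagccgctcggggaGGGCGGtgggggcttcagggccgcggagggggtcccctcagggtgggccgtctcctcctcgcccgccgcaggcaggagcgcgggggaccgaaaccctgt
CD72 (chr9:35618414-35618663, minus strand): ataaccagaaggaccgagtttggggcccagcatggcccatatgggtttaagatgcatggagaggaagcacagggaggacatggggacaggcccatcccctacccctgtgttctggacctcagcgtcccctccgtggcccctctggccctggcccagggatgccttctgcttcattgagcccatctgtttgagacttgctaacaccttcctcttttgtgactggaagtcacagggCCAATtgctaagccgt
FCER2 (chr19:7702132-7702381, minus strand): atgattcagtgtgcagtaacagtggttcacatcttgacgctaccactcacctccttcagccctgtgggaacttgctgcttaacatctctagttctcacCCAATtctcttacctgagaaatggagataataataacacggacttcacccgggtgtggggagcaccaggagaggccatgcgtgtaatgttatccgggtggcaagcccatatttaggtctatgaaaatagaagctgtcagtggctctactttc
The CR2 window holds an E-box (CAGGTG) from base 66 to 61 before the start and a GC box (GGGCGG) on the reverse strand from base 142 to 137. The CD24 window holds a GC box from base 99 to 94, and the CCAAT box of CD72 lies from base 16 to 12 and that of FCER2 from base 152 to 148. Among 35116 windows of the same length, 42.6% held the GC box, 32% the CCAAT box and 17.5% the E-box on either strand. No match to the octamer ATGCAAAT (1.63% of windows), the ETS-type letters GAGGAAGT (2.17%) and CCGGAAGT (3.42%), the EBF letters TCCC and GGGA 2 bases apart (1.06%), the interferon-type letters GAAA and GAAA 2 bases apart (3.02%), the STAT-type letters TTC and GAA 4 bases apart (5.38%), the kappaB-type letters GGG and TTTCC 2 bases apart (1.73%) or TATAAA (10.7%) was present in these 4 windows on either strand. Other start sites of the same genes gave other matches, which are not shown: one further CD24 window holds the EBF letters from base 177 to 168, and the second FCER2 window holds the interferon-type letters from base 58 to 49. No motif was found in all 4 windows shown, and a match in letters is a description of the sequence only. The CR2 and CD72 windows lie inside the longer gene spans of GENCODE 44.

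Resistant cells were set against the parental cells of the same line to ask how the surface genes differed once resistance had been acquired. A gene was called when its edgeR quasi-likelihood p, adjusted over all genes tested by Benjamini-Hochberg, was under 0.05 and its change was at least 1.5-fold. Positive log2 fold changes mean a higher level in resistant cells. In SUDHL6, 4 of the 9 genes were called, CR2 as higher and CD24, CD40 and FCER2 as lower, where 8.96% of the 16662 genes tested were called (4.31% as higher and 4.65% as lower). In SUDHL16, 3 of the 8 genes tested were called, CR2, CD72 and CD40, all higher, where 5.30% of 15708 genes were called (3.20% as higher and 2.10% as lower). Without CE-26 the same 3 and CD24, which was lower, were called, 4 of 8, where 10.0% of 16280 genes were called (6.73% as higher and 3.32% as lower). Because the choice of genes was made with earlier results of these data known, the shares here and below are a description only. The genes do not share one direction: their median log2 fold change was -0.14 in SUDHL6, beside -4.34e-05 over all genes tested, and 0.30 in SUDHL16, beside -0.02. Leaving out CE-26 gave 0.28 beside 0.05.

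**Figure D1:**
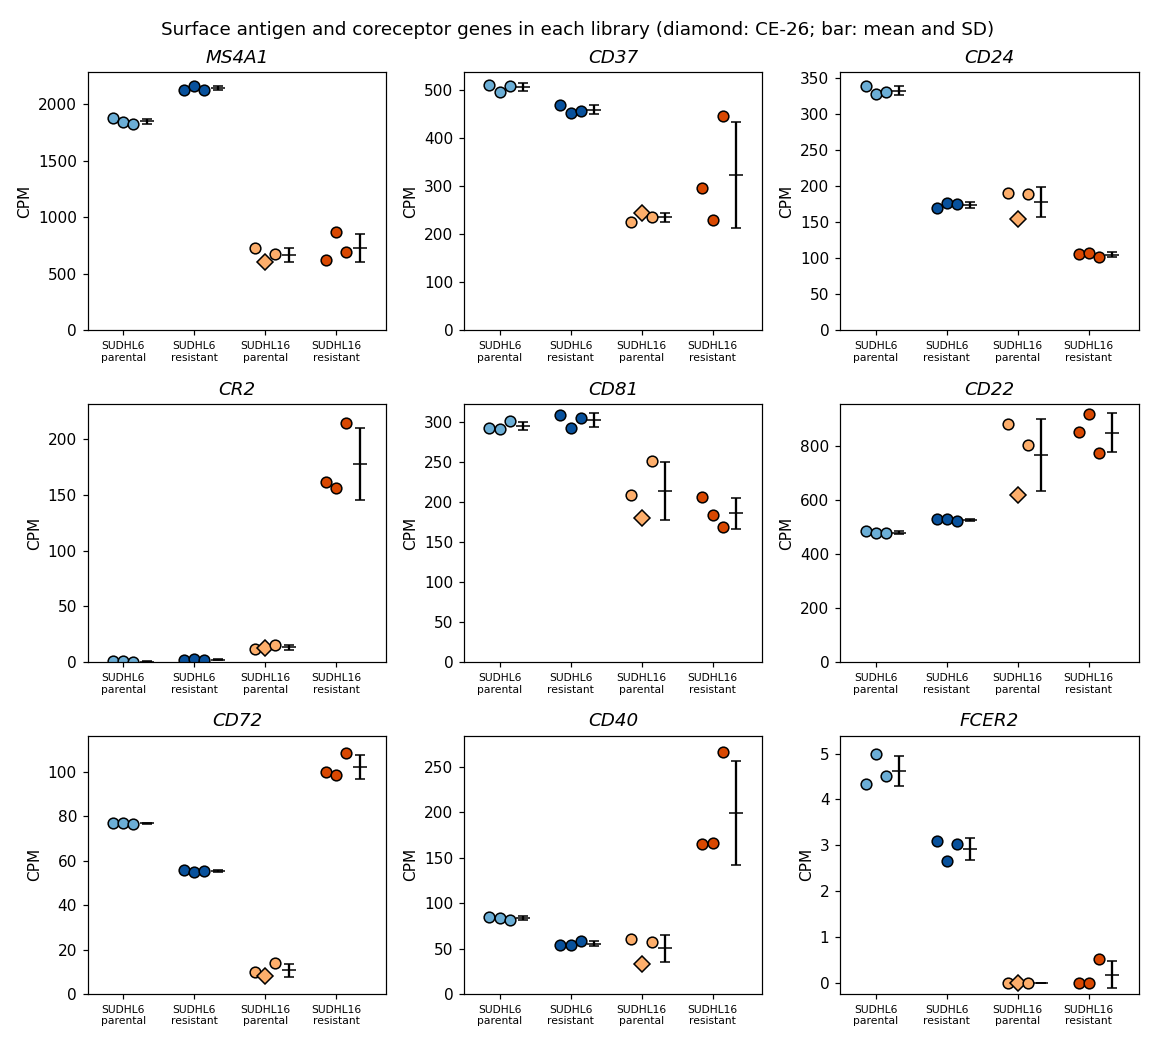
Level of each of the 9 genes in CPM on a linear axis, with 1 point per library, the diamond for CE-26, and the bar for the mean and SD of the 3 libraries of a group. CR2, CD72 and CD40 stand higher in the SUDHL16-resistant libraries than in their parental ones, while CD24 is lower in the resistant libraries of both lines.

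CR2 (ENSG00000117322, chromosome 1, 207453024 to 207489895, plus strand) codes for complement receptor 2, which binds complement-tagged antigen. In SUDHL6-parental cells it was barely present, at 0.705, 0.679 and 0.492 CPM from 20 to 24 counts a library. The SUDHL6-resistant libraries had 2.09, 2.50 and 2.40 CPM from 84 to 101 counts. The groups did not overlap, and CR2 rose by a log2 fold change of 1.90 ± 0.21 (SE, n = 3 libraries per group, 95% interval 1.45 to 2.35, edgeR adjusted p = 1.24e-05) from this low level. In SUDHL16-parental cells CR2 stood at 11.6, 13.1 and 15.6 CPM, and in SUDHL16-resistant cells at 161, 156 and 215 CPM, and the lowest resistant library stood far above the highest parental one. The log2 fold change was 3.72 ± 0.27 (SE, 95% interval 3.11 to 4.34, edgeR adjusted p = 4.94e-04), a 13.2-fold increase, and it was again 3.72 without CE-26 (adjusted p = 2.06e-04). Ordered by p, CR2 was in place 13 of the 15708 genes tested in SUDHL16. CR2 was thus called as higher in both resistant lines. Of the 13576 genes tested in both lines, 0.471% were called in the same direction in both. The increase was larger in SUDHL16 by 1.85 ± 0.30 on the log2 scale (SE, 95% interval 1.20 to 2.51) in the interaction test of a single fit of all 12 libraries (edgeR adjusted p = 0.00272). In bulk RNA a change in the share of cells that express a gene and a change in RNA per cell cannot be told apart.

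CD81 (ENSG00000110651, chromosome 11, 2376177 to 2397802, plus strand), the tetraspanin that is widely expressed on lymphocytes, was abundant in all libraries. It measured 292, 290.3 and 300.4 CPM in SUDHL6-parental and 309, 292 and 305 CPM in SUDHL6-resistant cells, which overlap. The SUDHL6 difference was 0.04 on the log2 scale (95% interval -0.02 to 0.09, edgeR adjusted p = 0.282). SUDHL16-parental libraries had 209, 180.1 and 251 CPM and SUDHL16-resistant libraries 205, 183 and 168 CPM, with a log2 difference of -0.20 whose interval, -0.77 to 0.36, spans changes of either sign (edgeR adjusted p = 0.729). Without CE-26 the SUDHL16 groups did not overlap and the difference was -0.30 (adjusted p = 0.469). CR2 and CD81 therefore stood in different proportions in the groups. Per kilobase of exon, the ratio of CR2 to CD81 was 0.00260 to 0.00383 in SUDHL6-parental, 0.0107 to 0.0136 in SUDHL6-resistant, 0.0879 to 0.115 in SUDHL16-parental and 1.25 to 2.03 in SUDHL16-resistant libraries.

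CD72 (ENSG00000137101, chromosome 9, 35609982 to 35646810, minus strand), the inhibitory coreceptor for CD100, stood lower in SUDHL6-resistant and higher in SUDHL16-resistant cells than in their parental cells. SUDHL6-parental libraries had 76.9, 77.1 and 76.6 CPM and SUDHL6-resistant libraries 55.7, 55.0 and 55.4 CPM, with no overlap. The log2 fold change of -0.47 ± 0.03 (SE, 95% interval -0.53 to -0.42) had an edgeR adjusted p of 2.97e-08 but did not reach 1.5-fold, so CD72 was not called in SUDHL6. In SUDHL16-parental libraries CD72 measured 10.1, 8.27 and 13.8 CPM, from 183, 24 and 223 counts, and in SUDHL16-resistant libraries 99.9, 98.4 and 108 CPM. The resistant libraries lay far above the parental ones, and CD72 rose by a log2 fold change of 3.22 ± 0.26 (SE, 95% interval 2.62 to 3.83, edgeR adjusted p = 5.55e-04), a 9.35-fold increase that was 8.61-fold without CE-26 (adjusted p = 2.28e-04). The lines differed by 3.70 ± 0.26 on the log2 scale (SE, 95% interval 3.14 to 4.27, edgeR interaction adjusted p = 7.72e-06). CD72 overlaps exons of TESK1 on the other strand, and whether counting used strand is not given in the sources used here. TESK1 had 1321 counts over the 3 SUDHL16-parental and 1950 over the 3 SUDHL16-resistant libraries, against 430 and 6128 for CD72. These are raw sums over libraries of unequal depth. After scaling, the log2 fold change of TESK1 in SUDHL16 was -0.20.

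CD22 (ENSG00000012124, chromosome 19, 35319261 to 35347361, plus strand), the sialic acid-binding inhibitory coreceptor, was at 477 CPM or more in every library. It measured 486, 479 and 477 CPM in SUDHL6-parental and 530.5, 529 and 523 CPM in SUDHL6-resistant cells. These groups do not overlap, yet the difference was small, 0.13 ± 0.02 on the log2 scale (SE, 95% interval 0.10 to 0.17, edgeR adjusted p = 3.39e-05), and CD22 was not called. SUDHL16-parental libraries had 882, 619 and 804 CPM, with CE-26 the lowest, and SUDHL16-resistant libraries 853, 921 and 776 CPM. The SUDHL16 groups overlap, with a log2 difference of 0.15 (95% interval -0.51 to 0.80, edgeR adjusted p = 0.846) that was 0.02 without CE-26 (adjusted p = 0.964). The ratio of the 2 inhibitory coreceptors per kilobase, CD72 to CD22, was 0.334 to 0.339 in SUDHL6-parental and 0.219 to 0.223 in SUDHL6-resistant libraries, and 0.0241 to 0.0363 in SUDHL16-parental and 0.225 to 0.294 in SUDHL16-resistant libraries. A long non-coding RNA on the same strand, ENSG00000269553, overlaps CD22 and drew 9223 counts over the SUDHL16-parental and 4821 over the SUDHL16-resistant libraries, so that reads of these genes could be split between them. These sums are not scaled for the unequal depth of the libraries.

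CD40 (ENSG00000101017, chromosome 20, 46118271 to 46129863, plus strand) was called in opposite directions in the lines. SUDHL6-parental libraries had 85.3, 83.6 and 81.5 CPM and SUDHL6-resistant libraries 53.9, 54.2 and 58.3 CPM. CD40 fell in SUDHL6 by 0.59 on the log2 scale (SE 0.03, 95% interval -0.67 to -0.51, edgeR adjusted p = 5.10e-08), a 1.51-fold decrease that sits at the limit of a call. It was no longer 1.5-fold without CE-7, CE-10 or CE-11, each of which gave -0.57, or with upper-quartile scaling (-0.57) or library totals (-0.58), and the call was also lost with glmTreat, which tests against the 1.5-fold limit itself (adjusted p = 1), and in a single fit of all 12 libraries (adjusted p = 0.850). In SUDHL16-parental libraries CD40 measured 60.8, 33.1 and 57.2 CPM, with CE-26 the lowest, and in SUDHL16-resistant libraries 166, 166 and 266 CPM. The groups did not overlap, and the log2 fold change was 1.97 ± 0.33 (SE, 95% interval 1.22 to 2.73, edgeR adjusted p = 0.0126), or 1.76 without CE-26 (adjusted p = 0.00580). The call in SUDHL16 was lost without CE-29 (2.08, adjusted p = 0.0549) or CE-30 (1.71, adjusted p = 0.0634). The SUDHL16 change exceeded the SUDHL6 change by 2.58 ± 0.38 (SE, 95% interval 1.75 to 3.40, edgeR interaction adjusted p = 0.00153) and was called when any one of the 12 libraries was left out. Of the 13576 genes tested in both lines, 0.494% were called in opposite directions.

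**Figure D2:**
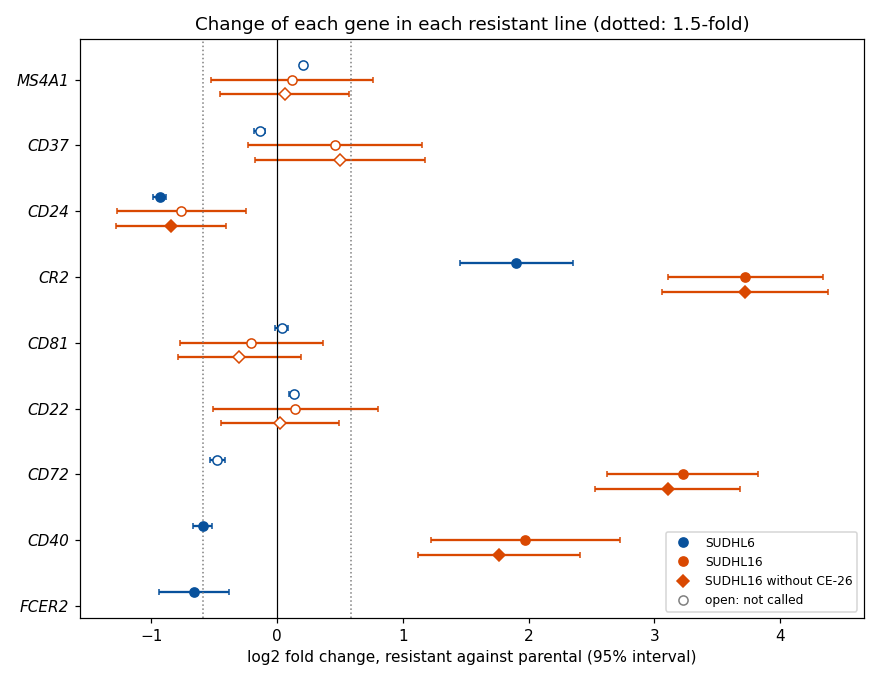
Log2 fold change of resistant against parental cells for each gene, with its 95% interval, in SUDHL6, in SUDHL16 and in SUDHL16 without CE-26. Filled symbols were called, and the dotted lines mark 1.5-fold. CR2 lies to the right in both lines, CD24 to the left, and CD72 and CD40 on opposite sides. FCER2 has no value in SUDHL16, where it was not tested.

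MS4A1 (ENSG00000156738, chromosome 11, 60455846 to 60470752, plus strand) codes for CD20, the target of rituximab, and had the highest mean per kilobase of the 9 genes in every group. It measured 1874, 1846 and 1827 CPM in SUDHL6-parental and 2128, 2160.4 and 2129 CPM in SUDHL6-resistant cells. The resistant libraries were all above the parental ones by a small margin, 0.21 ± 0.01 on the log2 scale (SE, 95% interval 0.18 to 0.24, edgeR adjusted p = 8.59e-08), which is 1.16-fold and was not called. SUDHL16-parental libraries had 731, 606 and 672 CPM and SUDHL16-resistant libraries 619, 866 and 697 CPM, which overlap. The SUDHL16 difference was 0.12 on the log2 scale (95% interval -0.53 to 0.76, edgeR adjusted p = 0.875) and 0.06 without CE-26 (adjusted p = 0.908).

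CD37 (ENSG00000104894, chromosome 19, 49335171 to 49343335, plus strand), a tetraspanin of leukocytes, was not called in either line. SUDHL6-parental libraries had 510.3, 495 and 508 CPM and SUDHL6-resistant libraries 469, 451 and 455 CPM, a difference of -0.14 ± 0.02 on the log2 scale (SE, 95% interval -0.18 to -0.10, edgeR adjusted p = 1.27e-04) without overlap. SUDHL16-parental libraries had 225, 243 and 235 CPM. The SUDHL16-resistant libraries spread over 296, 229 and 445 CPM and overlap the parental ones, with a log2 difference of 0.46 (95% interval -0.23 to 1.15, edgeR adjusted p = 0.468), or 0.50 without CE-26 (adjusted p = 0.369). CE-30 was the highest of the SUDHL16 libraries for CD37, CR2, CD72 and CD40 alike.

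CD24 (ENSG00000272398, chromosome 6, 106969831 to 106975627, minus strand) codes for a small, heavily glycosylated protein anchored by lipid in the membrane and was lower in the resistant libraries of both lines. SUDHL6-parental libraries had 339.6, 328 and 331 CPM and SUDHL6-resistant libraries 169.9, 177 and 176 CPM. CD24 fell by 0.93 on the log2 scale (SE 0.02, 95% interval -0.98 to -0.88, edgeR adjusted p = 2.74e-11), a 1.91-fold decrease that took place 20 by p among the 16662 genes tested. SUDHL16-parental libraries had 190.4, 154 and 189.7 CPM and SUDHL16-resistant libraries 106, 108 and 102 CPM, again with no overlap. There the log2 fold change was -0.76 ± 0.22 (SE, 95% interval -1.27 to -0.25) with an edgeR adjusted p of 0.100, and CD24 was not called. Without CE-26, whose 154 CPM was the lowest of the parental values, it was -0.84 ± 0.19 (SE, 95% interval -1.28 to -0.40, adjusted p = 0.0286) and was called. The changes in the lines differed by 0.20 on the log2 scale (95% interval -0.26 to 0.66, edgeR interaction adjusted p = 0.659), so the test did not separate the size of the decrease in the lines. CD24 has processed pseudogene copies. The most counted, CD24P4, had raw sums of 36 and 15 in SUDHL6 and 51 and 54 in SUDHL16, parental first. Those of CD24 were 36122, 20354, 6958 and 6264. How reads shared with the copies were counted is not given in the sources used here.

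FCER2 (ENSG00000104921, chromosome 19, 7688758 to 7702146, minus strand) codes for CD23, which is induced by IL4 and CD40 signals in mature B cells and was the least abundant of the 9 genes per kilobase in SUDHL16. In SUDHL6 it was low, at 4.35, 4.99 and 4.52 CPM in parental libraries from 148 to 184 counts and at 3.08, 2.65 and 3.03 CPM in resistant libraries from 107 to 124 counts. The groups did not overlap, and FCER2 fell by 0.66 on the log2 scale (SE 0.13, 95% interval -0.94 to -0.39, edgeR adjusted p = 0.00121). This call was lost with glmTreat and when all 12 libraries were fitted together, with an adjusted p of 1 in both. In SUDHL16 FCER2 was at 0 counts in 5 of 6 libraries and at 12 counts (0.510 CPM) in CE-30, and it was removed by the filter on low counts. A count of 0 allows 3 counts, which is 0.165, 1.03 and 0.186 CPM in the 3 parental libraries and 0.201 and 0.141 CPM in the resistant ones at 0, and this covers counting error only. No fold change is given for it in SUDHL16.

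In the test of the difference between the lines, 3 of the 9 genes were called, CR2, CD72 and CD40, each with the larger or the more positive change in SUDHL16, where 7.16% of 19621 genes were called (4.34% in this direction and 2.81% in the other). The single fit shares its estimate of spread for a gene between the lines, so these p-values may understate the larger spread of SUDHL16. Without CE-26 the same 3 were called, with differences of 1.78, 3.54 and 2.32 on the log2 scale, where 14.0% of 20959 genes were called (8.15% in this direction and 5.83% in the other). The other 6 genes had an edgeR adjusted p of at least 0.201 with all libraries, the lowest that of FCER2 with 5 of its 6 SUDHL16 libraries at 0, and their intervals were wide, such as -0.63 to 0.51 for MS4A1, -0.53 to 0.60 for CD22 and -0.01 to 1.30 for CD37. Over the groups themselves, 8 of 9 genes in SUDHL6 and 4 of 8 in SUDHL16 had no overlap between parental and resistant libraries, where 47.9% and 26.6% of all genes tested had none. Leaving out CE-26, 5 of 8 genes in SUDHL16 had no overlap, where 42.2% of all genes had none. Among the 9 genes in SUDHL6, 8 had an adjusted p under 0.05 at any fold, where 37.3% of all genes did.

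The order of the levels per kilobase of exon was compared within each group. In SUDHL6-parental cells it ran MS4A1 (388 CPM per kilobase), CD37 (121), CD24 (107), CD22 (77.9), CD81 (36.9), CD72 (26.3), CD40 (14.9), FCER2 (1.88) and CR2 (0.124 CPM per kilobase), with no overlap between the ranges of neighbours. In SUDHL6-resistant cells the ranges again did not overlap, and CD22 (85.6 CPM per kilobase) stood above CD24 (56.2 CPM per kilobase). In SUDHL16-parental cells MS4A1 (140.4 CPM per kilobase) and CD22 (125 CPM per kilobase) led and overlapped, as did CD24 with CD37 and, near the lower end, CD72 (3.67 CPM per kilobase) with CR2 (2.67 CPM per kilobase). In SUDHL16-resistant cells CD40 (35.5), CR2 (35.3), CD72 (34.9) and CD24 (33.96 CPM per kilobase) lay side by side with overlapping ranges of neighbours, above CD81 (23.2 CPM per kilobase). CR2 ran from 0.0977 CPM per kilobase in the lowest SUDHL6-parental library to 42.7 in the highest SUDHL16-resistant one. The ratio of CD40 to CD24 per kilobase was 0.118 to 0.183 in all libraries but the SUDHL16-resistant ones, where it was 0.849 to 1.44.

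**Figure D3:**
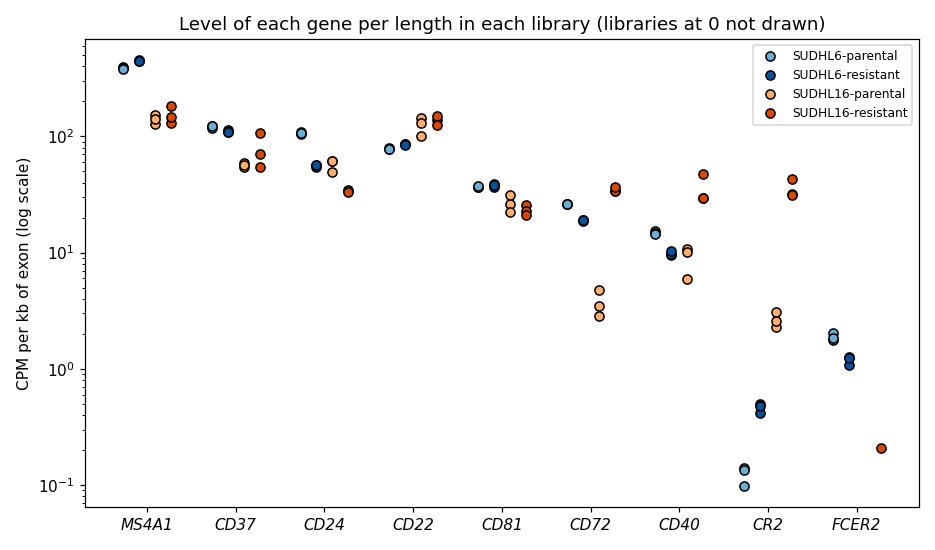
Level of each gene as CPM per kilobase of exon on a log axis, with 1 point per library, coloured by group. Libraries with 0 counts of FCER2 are not drawn. MS4A1 is at the top in SUDHL6, and CR2 runs from 0.0977 to 42.7 CPM per kilobase.

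The other protein-coding genes within 1 Mb of each gene gave a value for its surroundings. In SUDHL16 the 22 tested neighbours of CD40 had a median log2 fold change of 0.65, with 17 higher and 3 called as higher, beside a median of 0.04 for all protein-coding genes, while CD40 itself was at 1.97. Without CE-26 their median was 0.75, and 20 of 22 were higher. In SUDHL6 the 23 neighbours of CD40 had a median of -0.01, against -0.59 for CD40. The edgeR quasi-likelihood test, its exact test, DESeq2 and limma voom each called 0 of these 23, and 6 had an unadjusted p under 0.05 in the first. The neighbours of CR2 had medians of 0.06 (13 genes, SUDHL6) and 0.23 (11 genes, SUDHL16), those of CD72 0.09 (34 genes) and 0.18 (30 genes), and those of CD24 0.09 (9 genes) and -0.04 (11 genes). Without CE-26 the SUDHL16 medians were 0.21 for CR2, 0.11 for CD72 and 0.05 for CD24. CR2, CD72 in SUDHL16 and CD24 in SUDHL6 thus moved by far more than the median of their surroundings. Single neighbours moved too. Around CR2, 4 of 13 were called in SUDHL6 (1 higher and 3 lower), with values from -2.24 to 1.44. In SUDHL16, 1 of its 11 was called, and the highest stood at 6.64. Around CD72 in SUDHL16, 1 of 30 was called, with the highest at 3.06. The neighbours of CD24 in SUDHL6 ran from -0.28 to 0.46. CD40 in SUDHL16 lay in a region whose genes were mostly higher. The part of the region in the changes of CR2, CD72, CD24 and CD40 was not tested.

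**Figure D4:**
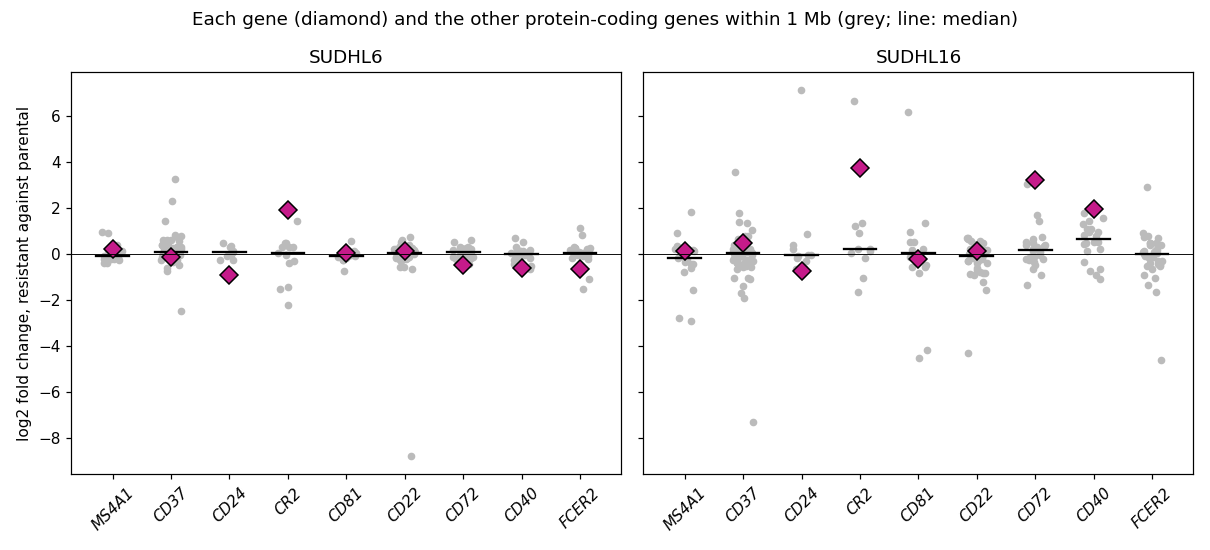
Log2 fold change of each gene (diamond) and of its tested protein-coding neighbours within 1 Mb (grey points, with their median as a line) in SUDHL6 and SUDHL16. The line lies farthest from 0 around CD40 in SUDHL16, at 0.65. FCER2 has no diamond in SUDHL16.

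Genes whose pattern was most like that of each of the 8 genes tested in both lines, which leaves out FCER2, were sought among 9694 protein-coding genes whose mean was 5 CPM or more, over the 12 libraries, after log2 CPM had been centred and scaled to an SD of 1 within each line. This scaling took out the difference between the lines but kept that between parental and resistant libraries. A gene that separates these groups with the same signs in each line thus has a high r. The genes named are the highest of those searched. These values of Pearson's r therefore restate the directions of change in large part, and they are a description with no p. CR2 was most like PRKCB (r = 0.996), which codes for a protein kinase C of the B-cell receptor pathway and had log2 fold changes of 0.36 in SUDHL6 and 4.48 in SUDHL16. CD72 was most like DUSP22, a phosphatase (r = 0.995, log2 fold changes of -0.40 and 2.25), and RAI1 (r = 0.995). CD40 was most like PIM2, a serine/threonine kinase (r = 0.996, log2 fold changes of -0.76 and 1.65), and FBXL14 (r = 0.989). CD24 was most like AFDN, which codes for the junction protein afadin (r = 0.997, log2 fold changes of -0.21 and -1.25), and LAPTM5, a lysosomal protein of blood cells (r = 0.992, -0.68 and -0.71). For the other genes, r was 0.973 between MS4A1 and VAMP7 and 0.971 with EDEM1, 0.982 between CD22 and SPAG5, 0.970 between CD37 and SEPTIN9 and 0.955 with PSMF1, and 0.921 between CD81 and WDR62 and 0.915 with TBCD. Among these 8 genes themselves CD72 and CD40 were the most alike (r = 0.977), and CR2 and CD24 the most opposed (r = -0.969).

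Lists of further genes of the same pathways, with the 9 genes left out, were described by counts. Over all lists, 22 of 103 tested genes were called in SUDHL6, 9 higher and 13 lower, with a median log2 fold change of -0.04. In SUDHL16, 18 of 105 were called, 16 higher and 2 lower, with a median of 0.45, and 35 of 107 (31 higher and 4 lower) without CE-26. The background for these counts is the 8.96%, 5.30% and 10.0% of all genes given above. The lists too were chosen with earlier results of these data known, so this is a description only. The gene with the smallest adjusted p of a list is named in each line, and further called genes are named after their values were seen. The genes named below as called in SUDHL16 with all libraries were called without CE-26 too, in the same direction.

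Downstream of CD40, 3 of 18 signalling genes were called in SUDHL6 and 4 of 18 in SUDHL16. In SUDHL6 TNFAIP3 (A20, an inhibitor of NF-kappaB that is itself an NF-kappaB target) fell by 0.86 on the log2 scale (edgeR adjusted p = 2.00e-08), from 41.3 ± 1.12 to 22.8 ± 0.418 CPM (SD, n = 3). TRAF3, an adaptor of CD40, also fell there, by 0.68 on the log2 scale, and CFLAR rose by 1.99 from a low level of 1.38 ± 0.365 CPM (SD). In SUDHL16 the 4 called genes were TNFAIP3 (2.27, adjusted p = 0.0138), TRAF3 (1.03), TRAF5 (1.27) and TRAF1 (1.84), all higher. Without CE-26, 5 of 18 were called, the same 4 as higher and MAP3K14, a kinase of the noncanonical NF-kappaB pathway, as lower (-0.81, adjusted p = 0.0360). TNFAIP3 went from 10.1 ± 3.94 CPM to 47.4 ± 14.5 CPM there (SD, n = 3). Like CD40, TNFAIP3 and TRAF3 were thus lower in SUDHL6-resistant and higher in SUDHL16-resistant cells, with interaction values of 3.20 (edgeR adjusted p = 3.83e-04) and 1.75 (adjusted p = 1.51e-04). CFLAR differed the other way, with an interaction value of -1.89 (edgeR adjusted p = 0.0353). In the interaction test 5 of 18 genes of this list were called, 4 more positive in SUDHL16 and 1 less, where 7.16% of all genes were called. Of the other TNF receptors, TNFRSF14 was the only one called in SUDHL6 (1 of 9, 1.10, adjusted p = 0.0123, at 0.712 and 1.53 CPM). In SUDHL16 the quasi-likelihood test of edgeR called 0 of 8, of which 2 had an unadjusted p under 0.05, while DESeq2 called 0, the exact test 1 and limma voom 6. The share of all genes called by DESeq2, the exact test and limma voom is not given here. Without CE-26, 4 of 9 were called.

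Among the effectors of CD22 and CD72, 2 of 12 tested genes were called in SUDHL6, both lower. They were SYK, a kinase of the B-cell receptor pathway (-1.14, edgeR adjusted p = 1.56e-11, from 199.6 ± 2.73 to 90.3 ± 2.66 CPM), and PTPN6, which codes for SHP-1 itself (-0.68, adjusted p = 2.07e-07). In SUDHL16 only LYN, the kinase that phosphorylates the inhibitory motifs of CD22, was called (2.11, adjusted p = 0.00263, from 25.05 ± 1.65 to 108 ± 25.5 CPM), and INPP5D, which codes for the phosphatase SHIP-1, joined it without CE-26 (0.86, adjusted p = 0.0430). Of the chains of the receptor, CD79A and CD79B were not called in either line, with log2 differences of -0.12 and -0.40 in SUDHL6 and 0.39 and 0.36 in SUDHL16. In SUDHL6 their groups did not overlap (edgeR adjusted p = 3.39e-04 and 3.58e-09), but neither gene reached 1.5-fold. In SUDHL16 their groups overlapped (edgeR adjusted p = 0.560 and 0.654). Among all 13 tested genes for receptor chains and other inhibitory coreceptors, 3 were called in SUDHL6 (2 higher, 1 lower), with SIGLEC10 the first by p (-1.54, adjusted p = 2.31e-07), and 1 of 12 in SUDHL16, FCGR2B (5.22, adjusted p = 0.00114, from 5.67 ± 3.18 to 207 ± 33.3 CPM). FCGR2B has near-identical copies in its family, so its reads are uncertain. Without CE-26, 5 of 12 were called.

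Among genes of the CR2 and CD81 list, IFITM1 rose in SUDHL16 from 10 counts in CE-25 and 0 in CE-26 and CE-27 to 520 to 1815 counts a library (adjusted p = 0.00244), and it shares sequence with its paralogs. Among tetraspanins and MS4A genes, 5 of 12 were called in SUDHL6 and 3 of 12 in SUDHL16 (5 of 12 without CE-26). TSPAN3 was first by p in both, lower in SUDHL6 (-1.05, edgeR adjusted p = 2.64e-08) and higher in SUDHL16 (1.33, adjusted p = 0.00888). For complement, the second function of CR2, 1 of 4 genes was called in SUDHL6, C5AR1 (1.28, adjusted p = 0.0280, at under 1 CPM), and 1 of 7 in SUDHL16, CD59, which blocks the membrane attack complex (2.14, adjusted p = 0.00409, from 13.1 ± 3.03 to 58.4 ± 11.998 CPM). Without CE-26, 2 of 7 complement genes were called in SUDHL16. In the list for IL4 and CD23, JAK3 was the called gene of both lines, higher in each, by 0.77 in SUDHL6 (1 of 7 genes, adjusted p = 9.49e-07) and 3.98 in SUDHL16 (1 of 8 genes, adjusted p = 0.00377). Without CE-26, 2 of 8 were called in SUDHL16, and JAK3 was at 4.65 (adjusted p = 1.58e-04).

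Of 26 other B-cell surface antigens tested in each line, 6 were called in SUDHL6, all lower, and 6 in SUDHL16, 5 of them higher. Without CE-26, 9 of 27 were called in SUDHL16, 8 of them higher. CD83, an activation antigen, was the first by p in SUDHL6, where it fell by 1.61 on the log2 scale (edgeR adjusted p = 1.85e-12) from 326 ± 7.74 to 107 ± 2.77 CPM. In SUDHL16 it rose from 116 ± 6.60 to 389.9 ± 109.5 CPM (1.75, adjusted p = 0.0116). The first by p in SUDHL16 was CD38, an ectoenzyme of germinal centre and plasma cells, which fell from 18.1 ± 9.72 to 1.18 ± 0.206 CPM (-3.92, adjusted p = 0.00417). The costimulatory ligands CD80 (2.30, adjusted p = 0.0382) and CD86 (1.57, adjusted p = 0.0363) rose in SUDHL16. The median log2 fold change of this list was -0.18 in SUDHL6 and 0.52 in SUDHL16.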

How the data were processed

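RNA was sequenced from SUDHL6 and SUDHL16 parental and venetoclax-resistant cells, with 3 libraries per group. RNA was extracted with TRIzol, and libraries were prepared with NEBNext Ultra II (SUDHL6) or with Illumina's stranded total RNA kit and Ribo-Zero Plus depletion (SUDHL16). The authors trimmed reads with Trim Galore, aligned them to GRCh38 with HISAT2 and used StringTie and edgeR, per the labels and the methods. They deposited raw read counts per Ensembl gene, 1 file per library, without normalization. The counting tool, its annotation and its strand setting are not given in the sources used here, so overlapping genes may share or split reads. Total counts were 4131927 to 40885665 per library, and counting intervals and floors cover counting error only.

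Of 60675 identifiers, 56558 were found in GENCODE 44. Genes were filtered with filterByExpr and scaled with TMM, and each line was fitted alone with the two-sided quasi-likelihood test of edgeR 4.0.16 in R 4.3.3. Calls needed a Benjamini-Hochberg adjusted p under 0.05 over all genes tested and 1.5-fold. The lines were compared by the interaction term of 1 fit to all 12 libraries, which shares its estimate of spread for a gene between the lines. CPM per kilobase used the union of exons in GENCODE 44. The log2 CPM behind likeness had a prior count of 2.

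The members and lists were chosen with earlier results of these data known. All 9 members, CD79A and CD79B were named, with the called gene of smallest adjusted p in each list and line and the 2 genes most like each member. Other named genes are marked in the text. Some genes under this rule are not reported here.

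Alternatives were DESeq2 1.42.0, upper-quartile scaling, library totals, no filter, the exact test, glmTreat, protein-coding genes only, a single fit to all libraries, limma 3.58.1 voom with quality weights, and leaving out each library. The scripts were tested on simulated data. Tables and figures were made in Python 3.11.15 with pandas 2.3.3, scipy 1.17.1 and matplotlib 3.10.9.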

Additional observations from a re-analysis of the deposited data

Results flagged for a closer look

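The change from parental to resistant cells differed between SUDHL6 and SUDHL16 for 3 of the 9 genes by the edgeR interaction test over all 12 libraries. The SUDHL16 change minus the SUDHL6 change was 1.85 on the log2 scale for CR2 (adjusted p = 0.00272), which was higher in the resistant libraries of both lines, from 0.625 ± 0.116 to 2.33 ± 0.215 CPM in SUDHL6 and from 13.4 ± 2.02 to 177 ± 32.3 CPM in SUDHL16 (SD, n = 3). It was 3.70 for CD72 (adjusted p = 7.72e-06), which stood at 76.9 ± 0.250 and 55.4 ± 0.354 CPM in SUDHL6 and at 10.7 ± 2.84 and 102 ± 5.34 CPM in SUDHL16, parental first. It was 2.58 for CD40 (adjusted p = 0.00153), at 83.5 ± 1.90 and 55.5 ± 2.45 CPM in SUDHL6 and 50.4 ± 15.1 and 199 ± 57.7 CPM in SUDHL16. Library kit and instrument cannot be told apart from the line in these differences.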

How the results depend on the processing

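The 3 calls of a difference between the lines held in each of the 18 alternatives run. Of the members, 4 were called in SUDHL6, 2 with glmTreat, 2 in a single fit of all 12 libraries, and 3 to 4 with a library left out. In SUDHL16, 3 were called, and 2 to 4 with a library left out. The calls of CD40 and FCER2 in SUDHL6 were those lost with glmTreat and with the single fit. CD24 in SUDHL16 was also called with DESeq2 (-0.78, adjusted p = 0.00389), upper-quartile scaling (-0.85), protein-coding genes only (-0.82), voom (-0.83) and the single fit (-0.73). Of the list genes, 22 were called in SUDHL6, 12 with glmTreat, 6 in the single fit and 21 to 22 with a library left out. In SUDHL16, 18 were called, 31 with DESeq2, 29 with the exact test, 10 with glmTreat, 48 with voom, 38 in the single fit, and 6 to 35 with a library left out. The share of all genes that each alternative called is not given here. These counts therefore show only how the calls depend on the setting, and they are no result about these genes. The cause was not tested. Library totals moved the median of all genes in SUDHL16 by 0.13 on the log2 scale.

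Among the small differences, the sign of MS4A1 in SUDHL16 turned without CE-29 (-0.031 to 0.24 over the libraries left out). The difference of MS4A1 between the lines turned with library totals (0.020), no filter (0.053) and without CE-25, CE-27 or CE-28 (-0.19 to 0.087 over the libraries left out), and that of CD22 with DESeq2 (-0.031), upper-quartile scaling (-0.10), protein-coding genes (-0.033), voom (-0.089) and without CE-26 or CE-29 (-0.16 to 0.22 over the libraries left out). None of these passed a test. No paired analysis was possible because the labels carry no replicate numbers. FCER2 had no count in 5 of 6 SUDHL16 libraries, so no fold change is given there. In these libraries 3 counts are 0.141 to 0.201 CPM, or 1.03 CPM in CE-26, beside 2.65 to 4.99 CPM of FCER2 in SUDHL6. Depth limits CD72 in CE-26, with 24 counts.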
